A study of Mus musculus with 12 samples.

Results

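The olfactory bulb genes are 7 genes, *Omp*, *S100a5*, *Ms4a15*, *Tbx21*, *Cdhr1*, *Doc2g* and *Eomes*, taken by symbol from the 52459 genes listed in the count tables. They were chosen by their levels in the forebrain/midbrain (F/M), where every one was lower in *Tpp1*-deficient than in control mice, so their F/M values are given as a description and not tested. The cerebellum (Cb), named in the choice as the contrast to F/M, is where they were tested, and these tests are not independent of the earlier results that led to the choice. *Tpp1* encodes tripeptidyl peptidase 1, a lysosomal protease, and was disrupted by gene targeting in the mutant line. Poly(A)-selected RNA was sequenced from 4 groups of 3 libraries, namely wild-type F/M (F/M-N), *Tpp1*-/- F/M (F/M-T), wild-type Cb (Cb-N) and *Tpp1*-/- Cb (Cb-T). All mice were males of 4 months of age, the wild-type mice were siblings of the mutants, and the line was kept by crossing heterozygotes. No library was made from olfactory bulb alone, and how much of the bulb each F/M dissection held is not given in the sources used here.

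In the olfactory system, sensory neurons of the nasal epithelium detect odorants and send their axons into the glomeruli of the olfactory bulb. There they contact mitral and tufted cells, glutamatergic neurons whose axons run to the olfactory cortex, under the control of periglomerular and granule interneurons that are renewed through life by migrating neuroblasts. The cell bodies of the sensory neurons lie outside the brain. *Omp* encodes olfactory marker protein, the standard marker of mature sensory neurons. *S100a5* encodes a calcium-binding protein of the S100 family that is prominent in the same neurons. *Ms4a15* belongs to the membrane-spanning 4A family. *Tbx21* (T-bet) and *Eomes* (Tbr2) encode T-box transcription factors of mitral and tufted cells that also act in T and natural killer cells, and *Eomes* marks unipolar brush cells of the cerebellum, a type of excitatory interneuron of the granular layer. *Cdhr1* encodes a cadherin-related protein of mitral and tufted cells and of photoreceptors, and *Doc2g* a member of the double C2 domain family.

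The genes lay on 6 chromosomes of GRCm38 in the GENCODE annotation. *Omp* was at chr7:98143359-98145502 on the - strand, *S100a5* at chr3:90608523-90611780 on the + strand, *Ms4a15* at chr19:10978307-10993250 on the - strand and *Tbx21* at chr11:97098071-97115331 on the - strand. *Cdhr1* was at chr14:37077857-37098347 on the - strand, *Doc2g* at chr19:4003313-4007005 on the + strand and *Eomes* at chr9:118478212-118486132 on the + strand. Exons of *Eomes* overlapped those of 1 listed gene on the other strand, *Gm33460*. The library kit keeps the strand, but the strand setting of the counting is not given in the sources used here, so reads of these genes may not have been told apart.

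The bases before the annotated starts of *S100a5* and *Ms4a15*, the genes with the least transcript left in F/M-T, and of *Doc2g*, the gene with a motif match, are shown 5′ to 3′. They are bases of RefSeq windows of GRCm38.p6 that lie before the start in both RefSeq and GENCODE, 250 for *S100a5* and *Ms4a15* and 178 for *Doc2g*, and capitals mark a match to a searched motif.
S100a5, chr3:90608272-90608521, + strand: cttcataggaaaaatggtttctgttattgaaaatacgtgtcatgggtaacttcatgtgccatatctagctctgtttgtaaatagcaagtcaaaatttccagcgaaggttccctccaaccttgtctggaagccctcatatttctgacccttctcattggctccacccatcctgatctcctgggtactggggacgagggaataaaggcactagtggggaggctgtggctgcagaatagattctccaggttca
Ms4a15, chr19:10993251-10993500, - strand: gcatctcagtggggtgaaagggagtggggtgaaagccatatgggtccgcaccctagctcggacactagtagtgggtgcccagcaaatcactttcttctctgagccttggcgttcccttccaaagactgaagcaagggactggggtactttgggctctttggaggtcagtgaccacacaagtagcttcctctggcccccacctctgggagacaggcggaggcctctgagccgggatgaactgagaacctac
Doc2g, chr19:4003135-4003312, + strand: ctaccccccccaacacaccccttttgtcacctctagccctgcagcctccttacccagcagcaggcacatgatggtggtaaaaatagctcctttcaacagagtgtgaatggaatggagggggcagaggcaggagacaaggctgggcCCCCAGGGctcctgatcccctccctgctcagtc
RefSeq windows of 300 bases, 250 before and 50 after the start, were matched by symbol for 6 of the 7 genes, all but *Omp*. They were searched on both strands for the letters CCCNNGGG, which EBF factors of the olfactory lineage bind, GGTGTGA for T-box factors and TAATTA for homeobox factors. *Doc2g* held CCCCAGGG 105 bases before its RefSeq start, and the windows of the other 5 genes held none of these letters. CCCNNGGG occurred in 13.7% of the 32851 windows of all genes, GGTGTGA in 3.98% and TAATTA in 5.29%, and none of these motifs contains another.

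Total counts were 21428379 to 24458189 per library, and 3 counts, taken as the smallest detectable level, corresponded to 0.121 to 0.139 CPM. Levels are in CPM, counts scaled to the library size by TMM over the 12 libraries, and log2 fold changes come from the fit within each tissue. A gene was called a DEG where edgeR's quasi-likelihood test gave an FDR below 0.1 together with a change of 1.5-fold or more. The 3 libraries of a group came from 3 mice, and the labels do not tie F/M to Cb libraries of the same mouse. The targeted gene *Tpp1* was at 87.7 to 94.3 CPM in F/M-N against 21.8 to 23.9 CPM in F/M-T, and at 112 to 114 CPM in Cb-N against 28.0 to 31.0 CPM in Cb-T, in the direction of the labels.

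In F/M, the 7 genes were lower in every T library than in any N library, as 23.6% of the 16665 genes tested there were. All 7 met the criteria of a DEG with a lower level, which 0.858% of all genes tested met, and nothing is read from this count because the genes were chosen on it. The genes of sensory neurons and *Ms4a15* were down to between 2.80% and 10.3% of the control level, while *Tbx21*, *Eomes*, *Doc2g* and *Cdhr1* kept between 17.4% and 46.5%. Fewer cells of a type, or fewer of their axons, and less RNA per cell cannot be told apart in bulk libraries such as these. Nor can they be told apart from the amount of bulb in each F/M dissection, which is not given and whose part was not tested. All 7 genes passed the filter on low counts in F/M, *Omp*, *S100a5*, *Ms4a15* and *Tbx21* through the F/M-N libraries alone, and 3 of the 7 passed it in Cb.

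**Figure D1:**
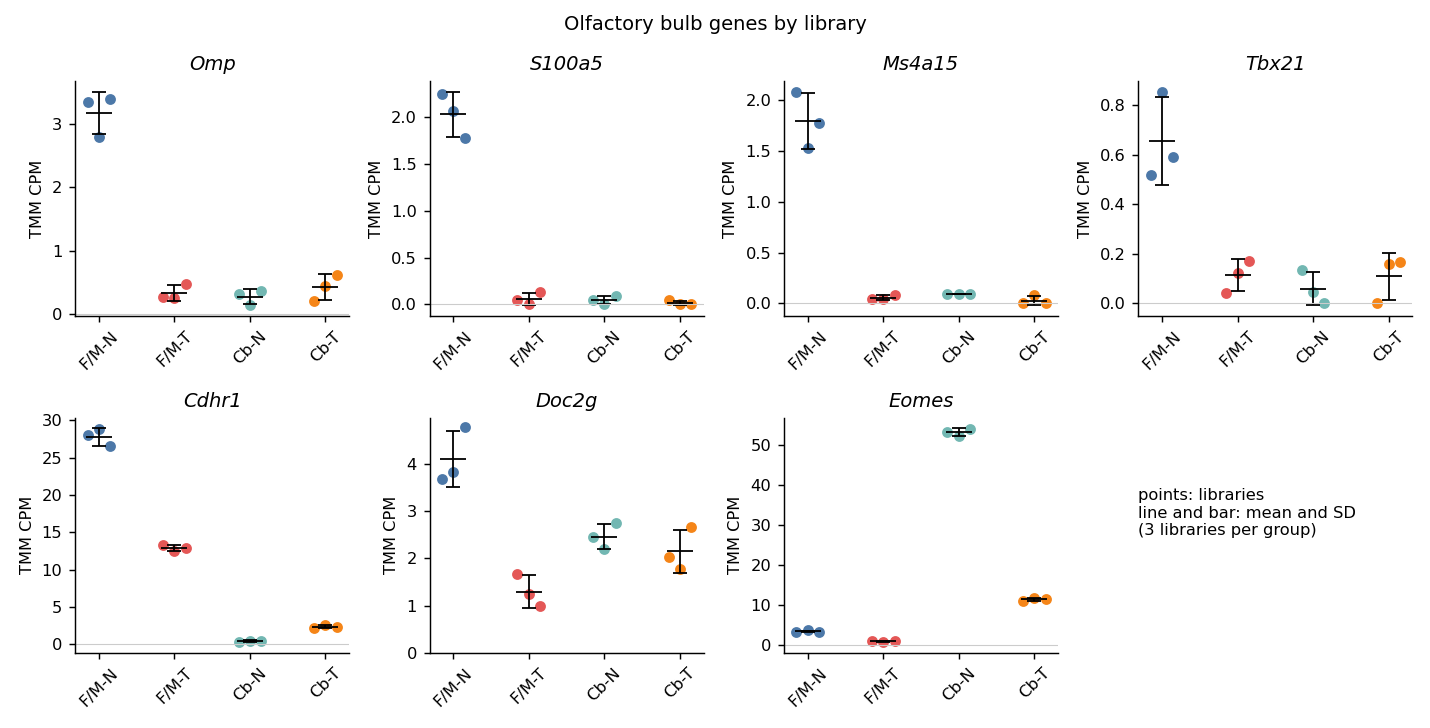
Levels of the 7 olfactory bulb genes in TMM-scaled CPM (linear axes, 1 panel per gene) for the 3 libraries of each of F/M-N, F/M-T, Cb-N and Cb-T. Points are libraries, and the line and bar are the mean and SD. Each gene has its 3 F/M-T points below its 3 F/M-N points, Cdhr1 has its Cb-T points above its Cb-N points, and Eomes is highest in Cb-N at 52.2 to 54.1 CPM.

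*Omp* was at 3.34, 2.79 and 3.39 CPM in F/M-N, against 0.263, 0.248 and 0.471 CPM in F/M-T. The highest T library thus lay well below the lowest N library. The means were 3.17 ± 0.33 CPM in F/M-N against 0.327 ± 0.12 CPM in F/M-T (SD, n = 3), and the log2 fold change was -3.23 (SE 0.26). From the summed counts, 23 in F/M-T and 219 in F/M-N, F/M-T held 10.3% of the control level (95% exact interval 6.38% to 15.8%). This and the other intervals on summed counts cover counting error only, not the spread between mice. What was left in F/M-T was close to the level in cerebellum, where *Omp* was at 0.311, 0.138 and 0.371 CPM in Cb-N, against 0.211, 0.443 and 0.621 CPM in Cb-T.

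*S100a5* was at 2.26, 2.07 and 1.78 CPM in F/M-N. In F/M-T, 1, 0 and 3 counts were found, that is 0.0438, 0 and 0.128 CPM. No F/M-T library was above the detectable level of 3 counts, and F/M-T held 2.80% of the control level (95% exact interval 0.752% to 7.32%). The log2 fold change of *S100a5* was -5.00 (SE 0.44), the second lowest of the 16665 genes tested, and moved between -6.23 without F/M-T3 and -4.43 without F/M-T2. In cerebellum *S100a5* was at or under 0.0928 CPM in all 6 libraries.

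*Ms4a15* was at 2.08, 1.53 and 1.78 CPM in F/M-N, against 0.0438, 0.0414 and 0.0856 CPM in F/M-T. The T values stand for 1, 1 and 2 counts, again under the detectable level in every library. F/M-T held 3.16% of the control level (95% exact interval 0.847% to 8.29%), and the log2 fold change was -4.83 (SE 0.41). In cerebellum *Ms4a15* had 6 counts over the Cb-N libraries and 2 over the Cb-T libraries.

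*Tbx21* was the lowest of the group in controls, at 0.520, 0.855 and 0.593 CPM in F/M-N. It was at 0.0438, 0.124 and 0.171 CPM in F/M-T, from 1, 3 and 4 counts. The groups did not overlap, F/M-T held 17.4% of the control level (95% exact interval 7.09% to 37.3%), and the log2 fold change was -2.44 (SE 0.48). Since *Tbx21* and *Eomes* are also genes of T and natural killer cells, a list of 12 genes of those cells was read beside them. Only 1 of the 12 genes was tested in F/M, which was not a DEG by edgeR, DESeq2 or limma-voom and had no unadjusted p below 0.05, *Ifng* was listed at 0, and the summed level of the list was 7.66 to 9.09 CPM in F/M-N, against 9.03 to 10.02 CPM in F/M-T. The tested gene, *Cd4*, made up most of that sum, at 7.87 ± 0.75 CPM in F/M-N, against 8.56 ± 0.68 CPM in F/M-T (SD, n = 3). The other 11 genes together had 26 counts over F/M-N and 67 over F/M-T, at 0.296 to 0.477 CPM per library against 0.788 to 1.16 CPM, and were not tested.

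*Eomes* was at 3.34, 3.69 and 3.43 CPM in F/M-N, against 1.09, 0.786 and 0.942 CPM in F/M-T. The log2 fold change was -1.85 (SE 0.19), with 26.9% of the control level left (95% exact interval 20.2% to 35.5%). The interval of *Eomes* lay within that of *Tbx21*, the other T-box gene.

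*Doc2g* was at 3.69, 3.83 and 4.78 CPM in F/M-N, against 1.66, 1.24 and 0.984 CPM in F/M-T. F/M-T held 31.5% of the control level (95% exact interval 24.6% to 40.0%), with a log2 fold change of -1.63 (SE 0.19). *Cdhr1* had the highest CPM of the 7 in F/M, a measure not scaled to gene length, at 28.0, 28.8 and 26.5 CPM in F/M-N, against 13.3, 12.5 and 12.9 CPM in F/M-T. It was also the gene with the largest share left, 46.5% (95% exact interval 42.9% to 50.3%), at a log2 fold change of -1.07 (SE 0.063). The interval of *Cdhr1* did not overlap that of any other gene of the group. Ranked among all genes tested in F/M from the lowest log2 fold change, *S100a5*, *Ms4a15* and *Omp* took ranks 2 to 4, *Tbx21* rank 7, *Eomes* rank 10, *Doc2g* rank 13 and *Cdhr1* rank 35.

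**Figure D2:**
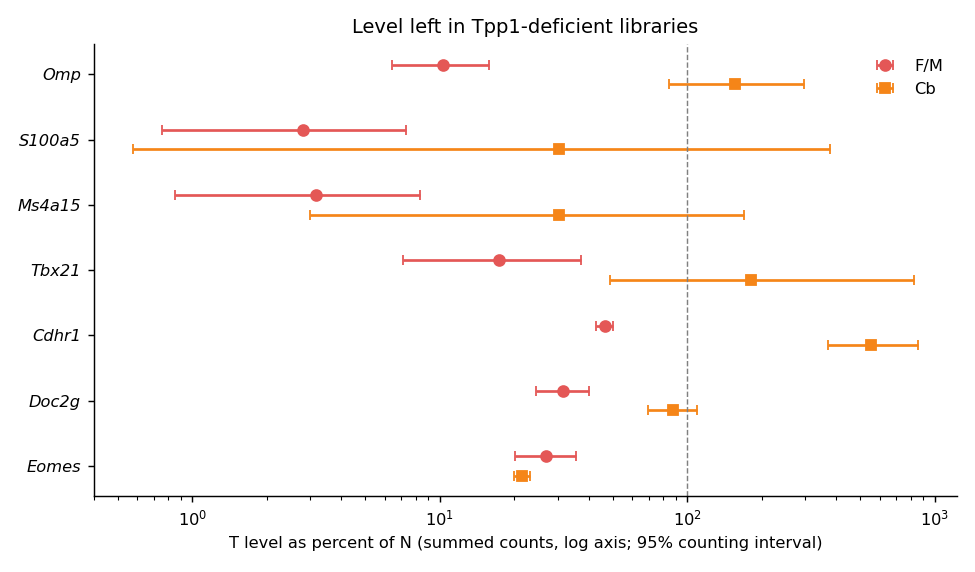
Level in T as a percent of N from summed counts (log axis) for each of the 7 genes, circles for F/M and squares for Cb, with 95% exact counting intervals. The F/M circles run from 2.80% for S100a5 to 46.5% for Cdhr1, and in Cb only Eomes lies wholly below 100% and only Cdhr1 wholly above it.

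Because the genes were not left at the same share, their proportions within a library changed. Per kb of exon, *Cdhr1* was at 3.87 to 5.10 times the level of *Omp* in the F/M-N libraries and at 13.6 to 25.0 times in the F/M-T libraries. Against *Eomes*, *Cdhr1* was at 7.41 to 8.03 times in F/M-N and at 11.6 to 15.2 times in F/M-T. Against *Doc2g*, *Cdhr1* was at 3.88 to 5.32 times in F/M-N and at 5.59 to 9.20 times in F/M-T. For each of the 3 ratios, every F/M-T library lay above every F/M-N library. These ratios rest on the F/M counts that chose the genes and were not tested.

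In control libraries, 5 of the 7 genes were higher in F/M than in Cb by 10.8 to 65.3 times. Per kb of exon, which makes levels comparable between genes, *Cdhr1* was the highest in F/M-N at 6.40 CPM per kb, followed by *S100a5* at 4.71, *Omp* at 1.48, *Doc2g* at 1.35, *Ms4a15* at 1.01, *Eomes* at 0.839 and *Tbx21* at 0.264 CPM per kb. The ranges of *Omp* (1.30 to 1.58) and *Doc2g* (1.21 to 1.58) overlapped, as did those of *Ms4a15* (0.861 to 1.17) and *Eomes* (0.804 to 0.888), so the order within these pairs was not larger than the spread between libraries. The level in F/M-N over that in Cb-N was 65.3 for *Cdhr1* (95% exact interval 45.01 to 98.5) and 11.6 for *Omp* (7.19 to 20.01). For *S100a5*, with 3 counts over the Cb-N libraries, it was 44.6 (14.97 to 219), for *Ms4a15* 19.8 (8.83 to 54.9) and for *Tbx21* 10.8 (3.92 to 41.2). For *Doc2g* the ratio was 1.67 (1.37 to 2.04). *Eomes* went the other way and was 15.3 times higher in Cb-N than in F/M-N (13.4 to 17.5). By these levels *Doc2g* and *Eomes* do not set F/M apart from Cb as the other 5 do.

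In the cerebellum the genes did not move together. Of the 3 genes tested there, *Eomes* fell and *Doc2g* did not pass the test. *Cdhr1* was higher in every Cb-T library, but it passed the filter through these libraries alone, and nothing is read from its call. Of all 16382 genes tested in Cb, 2.66% were called lower and 8.54% higher, and the libraries did not overlap for 29.4% with T lower and for 27.7% with T higher. An unadjusted p below 0.05 was found for 27.4% with T lower and for 29.1% with T higher, so such counts are common in Cb.

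*Eomes* was at 53.2, 52.2 and 54.1 CPM in Cb-N, against 10.96, 11.8 and 11.6 CPM in Cb-T. All Cb-T libraries lay far below all Cb-N libraries, and *Eomes* fell with a log2 fold change of -2.20 (SE 0.055, adjusted p = 4.0e-32, edgeR), to 21.5% of the control level (95% exact interval 19.9% to 23.2%). *Eomes* marks unipolar brush cells, so 9 other genes of these cells were read beside it. None of the 9 was called lower in Cb by edgeR, DESeq2 or limma-voom, 5 had an unadjusted p below 0.05 in that direction (27.4% of all genes) and 1 in the other, and 1 was called higher, *Slc17a6*. The median log2 fold change of the 9 genes was -0.27, against 0.01 for all genes tested. *Otx2* (-0.30), *Pax6* (-0.32) and *Plcb4* (-0.31) were below the FDR limit but within 1.5-fold, and *Lmx1a* (0.17), *Calb2* (0.04) and *Samd3* (0.03) did not pass the FDR limit. Most of these genes are expressed in other cerebellar neurons too, Purkinje cells for *Plcb4* and granule cells for *Pax6*. Of the 12 genes of T and natural killer cells none passed the filter in Cb, *Ifng* was listed at 0, and the summed level of the list was 0.177 to 0.278 CPM in Cb-N, against 1.24 to 1.39 CPM in Cb-T.

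*Cdhr1* was at 0.311, 0.458 and 0.510 CPM in Cb-N, against 2.19, 2.58 and 2.28 CPM in Cb-T. The groups were well separated, at 28 summed counts in Cb-N and 171 in Cb-T, a ratio of 5.54 (95% exact interval 3.70 to 8.58). The log2 fold change was 2.47 (SE 0.26, adjusted p = 8.7e-11, edgeR), and also 2.47 without any filter (adjusted p = 6.9e-20, edgeR). *Cdhr1* passed the filter on low counts through the Cb-T libraries alone, where it is high. Nothing is therefore read from its call, and its levels in Cb are a description. The level reached in Cb-T, 2.35 ± 0.20 CPM, remained under that of F/M-T, 12.9 ± 0.38 CPM (SD, n = 3). *Cdhr1* is also a photoreceptor gene. Of the 9 genes of a pineal and photoreceptor list, 4 were listed at 0 in every Cb library (*Crx*, *Gngt1*, *Pdc* and *Asmt*), and the summed level was 2.04 to 2.38 CPM in Cb-N, against 1.27 to 2.15 CPM in Cb-T.

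*Doc2g* was at 2.44, 2.20 and 2.74 CPM in Cb-N, against 2.02, 1.77 and 2.65 CPM in Cb-T. The groups overlapped, and the log2 fold change was -0.18 (SE 0.18, adjusted p = 0.42, edgeR, approximate 95% interval -0.54 to 0.18). The other 4 genes did not pass the filter on low counts in Cb and were not tested there. *Omp* had 18 counts over Cb-N and 31 over Cb-T, a ratio of 1.56 (95% exact interval 0.847 to 2.96). Leaving out Cb-T1, the lowest Cb-T library for *Omp*, let the gene pass the filter through the other Cb-T libraries and gave a log2 fold change of 0.96 (adjusted p = 0.096, edgeR), so that value follows from the library left out. *S100a5* had 3 and 1 counts, *Ms4a15* 6 and 2, and *Tbx21* 4 and 8 counts over Cb-N and Cb-T, and the 95% exact intervals of the ratio of T to N were 0.00576 to 3.76 for *S100a5*, 0.0298 to 1.69 for *Ms4a15* and 0.486 to 8.23 for *Tbx21*. All 3 intervals include 1, so no difference was detectable. All Cb-T libraries of *Ms4a15* lay below its Cb-N libraries, at 0 to 2 counts in each library of either group. The floors of 3 counts per library, like the intervals, cover counting error only.

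Few other genes of the bulb's cell types were called in F/M. From lists of 56 genes of sensory neurons, mitral and tufted cells, bulb interneurons and neuroblasts, and ensheathing glia, 55 were in the count tables and 51 were tested. Of these, 2 were called lower, against 0.858% of all genes, and 1 higher, against 2.63% of all genes. The T libraries lay below all N libraries for 25 of the 51 genes and above for 3, against 23.6% and 13.3% of all genes tested. An unadjusted p below 0.05, counted for the lists here and later, was found with T lower for 22 of the 51 genes and 17.1% of all genes tested in F/M, and with T higher for 4 of the 51 and 15.7% of all. The median log2 fold change was -0.12, beside 0.01 over all genes tested. Most genes of the lists are also expressed elsewhere in the forebrain, so their levels are not those of the bulb alone.

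The 2 genes called lower were both of interneurons. *Sp8*, a transcription factor of neuroblasts and periglomerular and granule cells, was at 6.03, 5.27 and 6.43 CPM in F/M-N, against 2.06, 2.73 and 2.57 CPM in F/M-T. No libraries overlapped, and *Sp8* fell with a log2 fold change of -1.23 (adjusted p = 2.4e-06, edgeR). *Scgn*, which encodes the calcium sensor secretagogin, was at 2.95, 2.57 and 1.52 CPM in F/M-N, against 0.481, 1.16 and 1.11 CPM in F/M-T. These groups did not overlap either, and *Scgn* fell with a log2 fold change of -1.30 (adjusted p = 0.0023, edgeR). Both were at or under 0.0458 CPM in every cerebellar library. Of the 23 tested genes of the interneuron list, 12 had an unadjusted p below 0.05 with T lower and 0 with T higher, the T libraries lay below all N libraries for 14 and above for 0, and the median was -0.14. The other 21 were not called by edgeR, among them *Th* (0.00) of dopaminergic periglomerular cells, *Trh* (-0.02), *Calb2* (-0.02), *Dlx2* (-0.10), *Sp9* (-0.21), *Synpr* (-0.22), *Tshz1* (-0.31) and *Dlx1* (-0.34), each as a log2 fold change.

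The sensory neuron list holds genes of the odorant response. Of its 16 genes, 13 were tested, none was called lower by edgeR within F/M or by DESeq2, 1 was called lower by limma-voom (*Rtp1*), 5 had an unadjusted p below 0.05 with T lower and 1 with T higher, and the median was -0.14. *Cngb1*, a subunit of the cyclic nucleotide-gated channel, was at 1.34, 1.22 and 1.44 CPM in F/M-N, against 2.06, 2.73 and 1.58 CPM in F/M-T. Its T libraries all lay above its N libraries, and *Cngb1* rose with a log2 fold change of 0.70 (adjusted p = 0.026, edgeR), a call lost without F/M-T2. The channel subunit that is more particular to these neurons, *Cnga2*, was at 0.212 to 0.315 CPM in F/M-N, against 0.414 to 0.438 CPM in F/M-T, and was not tested. *Rtp1*, a chaperone of odorant receptors, was at 0.867, 0.585 and 0.762 CPM in F/M-N, against 0.569, 0.497 and 0.128 CPM in F/M-T. Its log2 fold change was -0.85, at an adjusted p of 0.13 (edgeR). *Rtp1* passed the filter through the F/M-N libraries alone, where it is high, so nothing is read from its call by limma-voom or from that by edgeR in the joint fit of the 12 libraries (-0.89, adjusted p = 0.093). *Gnal*, which encodes the G protein subunit of the odorant response and is abundant in striatum, had a log2 fold change of -0.05, and *Adcy3*, the adenylyl cyclase of that response, one of -0.17.

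The odorant receptors themselves were summed over the 1103 listed genes whose symbol is *Olfr* with a number. Their summed level was 11.7, 12.7 and 11.98 CPM in F/M-N, against 13.6, 12.9 and 13.1 CPM in F/M-T. The T libraries all lay above the N libraries, at means of 13.2 ± 0.35 and 12.1 ± 0.55 CPM (SD, n = 3, two-sided exact permutation p = 0.10, the smallest that 3 against 3 libraries allow). In cerebellum the sums were 11.8 ± 0.54 CPM in Cb-T and 10.9 ± 0.92 CPM in Cb-N (SD, n = 3, exact permutation p = 0.30). A few receptors carried the sums, and Olfr287 alone gave 179 of 835 counts over F/M-N and 229 of 928 over F/M-T. Of 7 receptor genes tested in F/M 1 was called higher, Olfr920, and of 6 tested in Cb 1 was called lower and 2 higher. Olfr920 had 24 counts over F/M-N and 45 over F/M-T, so it passed the filter through the F/M-T libraries alone, where it is high. Nothing is read from these calls. Olfr287 and Olfr920 were chosen for mention after their values were seen. Receptor genes are near-identical in part, and how reads with several alignments were divided is not given in the sources used here.

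In the mitral and tufted list, 9 of 10 genes were in the tables and tested. None was called in either direction by edgeR, DESeq2 or limma-voom, 4 had an unadjusted p below 0.05 with T lower and 1 with T higher, and the median was -0.05. *Tbr1*, a T-box gene that is related to *Eomes* and also marks cortical neurons, was at 112.9 CPM in F/M-N, against 94.8 CPM in F/M-T. Its log2 fold change was -0.22. *Reln* had one of -0.22, *Ntng1* one of -0.30, *Slc17a7* one of -0.05 and *Lhx5* one of 0.52. In ensheathing glia, none of 6 genes was called by any of the 3 tools, 1 had an unadjusted p below 0.05 with T lower and 2 with T higher, and the median was 0.01.

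**Figure D3:**
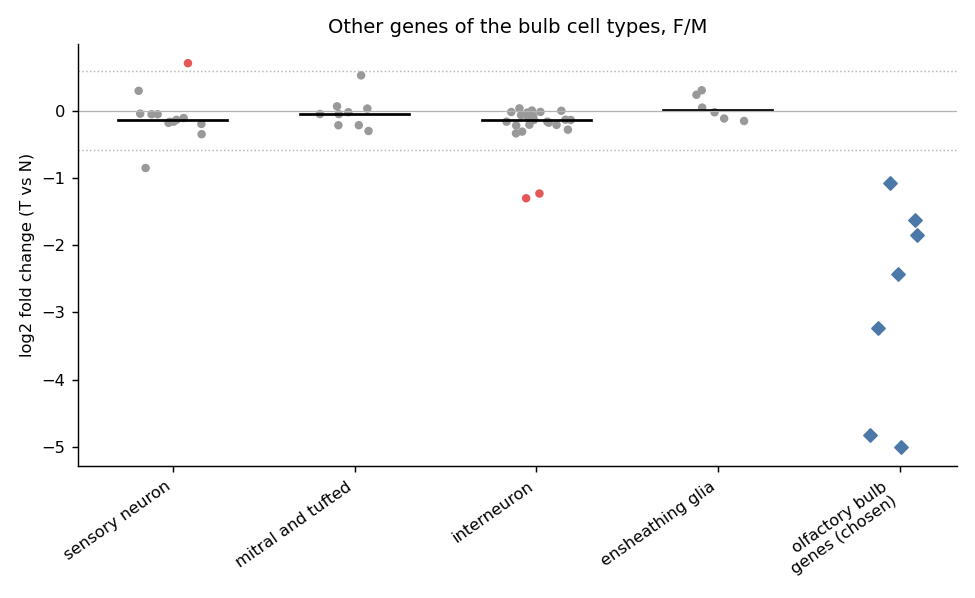
Log2 fold change of F/M-T against F/M-N (vertical axis) for the tested genes of 4 lists of bulb cell types, grey where not called and red where called, with the list's median as a bar, beside the 7 chosen genes as blue diamonds. Dotted lines mark 1.5-fold. The lists lie around their medians of -0.14, -0.05, -0.14 and 0.01 with 3 genes called, and the 7 chosen genes run from -1.07 to -5.00.

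The same bulb genes in cerebellum gave 1 of 40 called lower and 9 called higher, beside 2.66% and 8.54% of all genes. Their median log2 fold change was 0.06 against 0.01 for all genes. Among them, *Meis2*, a homeobox gene of bulb interneurons and striatum, rose from 5.22 ± 0.38 to 28.8 ± 0.95 CPM (log2 fold change 2.48), and *Slc17a6*, the vesicular glutamate transporter VGLUT2, from 21.2 ± 1.2 to 102 ± 1.4 CPM (log2 fold change 2.28, SD, n = 3). Of the 9, *Igfbpl1* (15 summed counts in Cb-N, 89 in Cb-T) and *Cngb1* (19 and 71) passed the filter through the Cb-T libraries alone, and nothing is read from their calls. *Kirrel2* fell with a log2 fold change of -0.79.

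Genes of other brain regions moved in the same libraries, and their part in the levels of the 7 genes was not tested. Of a list of 10 hindbrain genes 3 were tested in F/M. *Slc6a4*, the serotonin transporter of raphe neurons, was at 0.130, 0.0900 and 0.212 CPM in F/M-N, against 6.74, 6.08 and 6.16 CPM in F/M-T, and *Tph2*, the tryptophan hydroxylase of the same neurons, at 0.931 to 1.44 CPM in F/M-N, against 9.41 to 9.93 CPM in F/M-T. *Slc6a4* passed the filter through the F/M-T libraries alone, while *Tph2*, which rose by 3.03 on the log2 scale, passed it in either group. The third, *Slc6a5*, the glycine transporter of inhibitory hindbrain neurons, rose by 0.91 on the log2 scale. *Hoxb2*, *Hoxa3* and *Hoxd3* were listed at 0 in every F/M library, and the summed level of the list was 2.12 to 3.17 CPM in F/M-N, against 18.5 to 18.7 CPM in F/M-T. Of 9 tested hypothalamic genes 4 rose, *Fezf1*, *Oxt*, *Nkx2-1* and *Pomc*, by 0.62 to 0.98 on the log2 scale, 8 had an unadjusted p below 0.05 with T higher, and the median was 0.54, DESeq2 and limma-voom each calling 3 higher, with a summed level of 38.8 to 44.9 CPM in F/M-N, against 51.6 to 60.4 CPM in F/M-T. Of 10 thalamic genes 1 fell by 1.5-fold or more, *Prkcd* (log2 fold change -0.87), while 9 had an unadjusted p below 0.05 with T lower and 1 with T higher. Their median was -0.37, the T libraries lay below all N libraries for 9 of the 10, and the sum of the list was 496 to 516 CPM in F/M-N, against 365 to 377 CPM in F/M-T. None of the genes of the cortex, striatum, hippocampus and midbrain lists was called in F/M by edgeR, DESeq2 or limma-voom, with an unadjusted p below 0.05 and T lower for 6, 3, 2 and 1 of them and T higher for 0, 0, 0 and 1. Their medians were -0.11, -0.07, -0.06 and 0.02, and the T libraries lay below all N libraries for 9 of 10, 4 of 10, 3 of 10 and 1 of 8 genes. The sums of all 4 lists were lower in every T library, at 996 to 998 CPM in F/M-N, against 893 to 926 CPM in F/M-T for cortex, 1113 to 1137 against 1066 to 1086 CPM for striatum, 455 to 483 against 428 to 452 CPM for hippocampus, and 122 to 123 against 107 to 111 CPM for midbrain. Of 8 genes of the choroid plexus none was called by the 3 tools, with an unadjusted p below 0.05 for 1 with T lower and 4 with T higher, and their sum was 607 to 647 CPM in F/M-N, against 831 to 878 CPM in F/M-T. The 7 olfactory bulb genes, chosen on their F/M values, were at -1.07 and lower, below every gene of these region lists.

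In Cb, genes of other regions were read in the same libraries as the higher level of *Cdhr1* in Cb-T. Of 8 tested hindbrain genes 7 were called higher, by 1.70 to 4.17 on the log2 scale, but 5 of the 7 passed the filter through the Cb-T libraries alone and nothing is read from their calls. The sum of the list was 49.5 to 53.2 CPM in Cb-N, against 65.7 to 66.4 CPM in Cb-T. In the cortex list 3 of 9 tested genes rose, *Lamp5* by 3.34, *Rasgrf2* by 2.08 and *Bcl11b* by 2.02 on the log2 scale. The other 6 were not called, some of them only because they changed by less than 1.5-fold. Of the 9, 3 had an unadjusted p below 0.05 with T lower and 4 with T higher, and the median was -0.16. In the striatum list *Drd2* rose by 3.22 and *Tac1* by 3.08, with an unadjusted p below 0.05 for 2 with T lower and 4 with T higher among 9 genes and a median of 0.53. In the thalamus list of 9 tested genes *Tcf7l2* rose by 2.52, 4 had an unadjusted p below 0.05 with T lower and 4 with T higher, and the median was 0.11. In the hippocampus list of 8 tested genes 2 had an unadjusted p below 0.05 with T lower and 3 with T higher, and the median was 0.04. In the midbrain list of 7 tested genes *Ddc* rose by 0.80 and *Nr4a2* fell (log2 fold change -1.39), with an unadjusted p below 0.05 for 3 with T lower and 4 with T higher and a median of 0.24. *Drd1*, *Tnnt1*, *C1ql2*, *Gata3* and *Pax7* were called higher too but passed the filter through the Cb-T libraries alone, where they are high, and nothing is read from their calls or from the medians of lists that hold them. Summed, the midbrain list was at 121 to 127 CPM in Cb-N, against 75.3 to 77.7 CPM in Cb-T, the thalamus list at 704 to 738 CPM in Cb-N, against 624 to 649 CPM in Cb-T, the striatum list at 379 to 384 CPM in Cb-N, against 346 to 351 CPM in Cb-T, the hippocampus list at 446 to 491 CPM in Cb-N, against 378 to 386 CPM in Cb-T, and the cortex list at 242 to 255 CPM in Cb-N, against 258 to 268 CPM in Cb-T. Of the 7 genes, *Eomes* was at 10.96 to 11.8 CPM in these Cb-T libraries, below Cb-N. *S100a5* and *Ms4a15* were at or under the detectable level in all Cb-T libraries, and the Cb-N and Cb-T libraries of *Doc2g* overlapped. *Omp* had 31 counts over Cb-T and 18 over Cb-N, and *Tbx21* had 8 and 4, neither gene being tested. The part of these regions in the levels of *Cdhr1* and the other 6 genes was not tested.

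**Figure D4:**
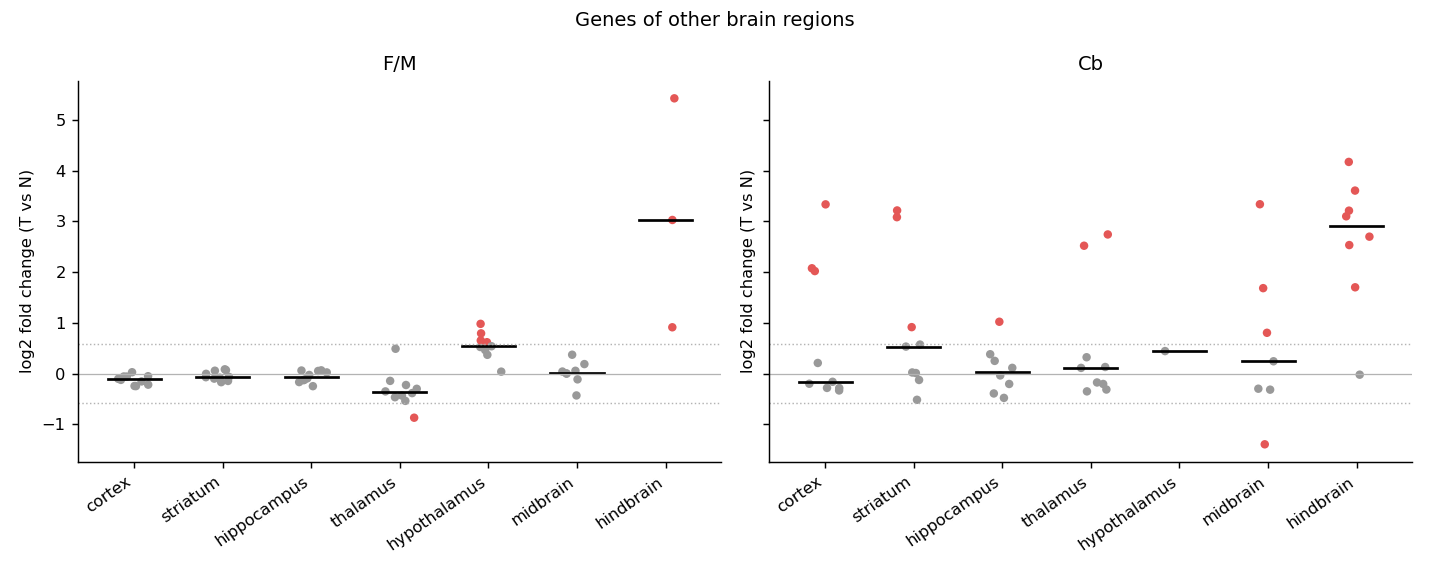
Log2 fold change of T against N (vertical axis, shared) for the tested genes of 7 lists of brain regions in F/M (left) and Cb (right), red where called, with the list's median as a bar and dotted lines at 1.5-fold. In F/M the 3 tested hindbrain genes lie at 0.91 to 5.43, the highest (Slc6a4) having passed the filter through F/M-T alone, and the cortex, striatum, hippocampus and midbrain genes lie near 0, and in Cb the called genes above 0 include 10 that passed the filter on low counts only through the Cb-T libraries, namely Drd1, C1ql2, Tnnt1, 2 midbrain and 5 hindbrain genes.

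Genes whose pattern over the 12 libraries was most like that of *Omp* or *Cdhr1* were found by the root mean square difference of log2 CPM, each gene taken relative to its F/M-N mean, among 14792 genes with at least 1 CPM in F/M-N. Nearest to *Omp* were *Adamts19* (0.87), *Trdn* (1.02), *Bglap3* (1.08), *Shisa3* (1.10) and *Tnfrsf25* (1.11). *Adamts19*, a secreted metalloprotease, was at 2.88 ± 0.59 CPM in F/M-N, 0.952 ± 0.054 CPM in F/M-T and 0.137 CPM in Cb-N (SD, n = 3), so it kept a larger share in F/M-T than *Omp*. *Bglap3* has near-identical neighbours, and its counts are uncertain. Of the group itself, *Ms4a15* (0.87) and *Tbx21* (0.90) were closest to *Omp*, then *S100a5* (1.13), *Cdhr1* (1.69), *Doc2g* (1.76) and *Eomes* (4.26). *Ms4a15*, *Tbx21* and *S100a5* had few counts in F/M-T and Cb, where the prior count of 2 weighs on the distance. *Tbx21*, at 0.656 CPM in F/M-N, was also under the 1 CPM asked of other genes, so the order of these 3 is not read. Nearest to *Cdhr1* were *Cckbr* (0.47), *Nptx2* (0.49), *Chsy3* (0.50), *Doc2a* (0.52) and *Cpne4* (0.53), all with lower levels in Cb-N than in F/M-N. *Cckbr*, the cholecystokinin B receptor, was at 54.4 CPM in F/M-N, 39.9 CPM in F/M-T, 3.73 CPM in Cb-T and 1.09 CPM in Cb-N. The likeness is a description of the 12 libraries, which include the strong contrast of F/M with Cb.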

How the data were processed

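Levels of RNA were taken from 12 libraries, 3 for each of F/M-N, F/M-T, Cb-N and Cb-T, grouped by the labels. The authors isolated RNA with TRIzol and column cleanup, prepared stranded poly(A) libraries, sequenced single-end reads, aligned them to GRCm38 (mm10) with STAR and counted reads per gene with featureCounts, and the deposited values are raw counts, 1 table per library. Total counts were 21428379 to 24458189, and replicate pairs differed by more than sampling noise (chi-square per degree of freedom 1.28 to 3.59 over 12 pairs). The strand setting, multiple alignments and annotation release of the counting are not given in the sources used here. Cufflinks results of the study were not used here.

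Within each tissue, genes were kept by filterByExpr (minimum count 10, minimum total 15), scaled by TMM and tested with the quasi-likelihood test of edgeR 4.0.16 in R 4.3.3 with Benjamini-Hochberg adjustment over all genes kept. A DEG had an FDR below 0.1 and changed by 1.5-fold or more. CPM for display were scaled by TMM over all 12 libraries. Ratios of summed counts have exact 95% intervals, and likeness used a prior count of 2. Alternatives were DESeq2 1.42.0, voom of limma 3.58.1, RLE size factors, no scaling factor for the summed receptors, no filter, a mean count of at least 50, a replicate block, FDR below 0.05, a joint fit of the 12 libraries, no fold limit and leaving out each library. Exon lengths and positions came from GENCODE M21. The members and the lists, and the rule for named genes, were chosen with earlier results of these data known. Named were the 7 genes, *Tpp1*, at most 4 called genes per list by size of change, any gene of the bulb and brush cell lists, and the 5 genes most like *Omp* and *Cdhr1*. Values of a few genes of the lists are not reported here.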

Additional observations from a re-analysis of the deposited data

Results flagged for a closer look

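*Cdhr1* was flagged because its libraries moved in opposite directions in the 2 tissues, all F/M-T libraries lying below F/M-N (log2 fold change -1.07) and all Cb-T libraries above Cb-N (log2 fold change 2.47). Of the genes in the bulb lists, 3 were flagged in the same way. *Slc17a6* had log2 fold changes of -0.0245 in F/M, where no change was detected (adjusted p = 0.65, edgeR), and 2.28 in Cb. *Meis2* had log2 fold changes of -0.165 in F/M and 2.48 in Cb. *Sox11*, a transcription factor of neuroblasts, had log2 fold changes of -0.14 in F/M and 1.11 in Cb. The difference between the tissues was not tested for any of these genes. For *Cdhr1* the F/M value is the one that chose it, and in Cb it passed the filter through the Cb-T libraries alone. Groups of 3 libraries were too small to look for outlying libraries.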

How the results depend on the processing

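Of the 269 values recomputed under an alternative, 0 reversed and 25 moved, which means by over 1.5 times for a count and by over the SD between libraries of a group on the log2 scale for a fold change in F/M. Of the 25, 5 are fold changes in F/M (*Omp* 1, *S100a5* 2 and *Ms4a15* 2), within the ranges given for these genes. DESeq2 called 82 genes lower and 283 higher in F/M, against 143 and 438. With a mean count of at least 50, 55 genes were lower and 204 higher in F/M, 176 lower and 721 higher in Cb, 0 of the 7 genes were higher in Cb (*Cdhr1* was not tested), and 1 bulb list gene was lower and 0 higher in F/M, fewer genes being tested. With no fold limit, 2407 genes were lower and 2134 higher in F/M, 4564 lower and 4878 higher in Cb, 18 bulb list genes were lower and 4 higher in F/M, and 5 brush cell genes were lower in Cb. Leaving out 1 library gave 117 to 161 genes lower and 367 to 471 higher in F/M and 431 to 514 lower and 1396 to 1472 higher in Cb. Over the same 6 fits, 1 to 2 of the 7 genes were higher in Cb (2 without Cb-T1, where *Omp* joined), and 0 to 2 bulb list genes were higher in F/M. *Lhx5* joined *Cngb1* without F/M-N2 or F/M-T1, and none was left without F/M-T2. The difference of the summed odorant receptor level ran from 0.836 to 1.37 CPM with 1 library left out and was 1.504 CPM with no scaling factor, against 1.07. The cause was not tested for the DESeq2 counts or those with a library left out. The log2 fold changes in F/M ranged from -3.58 to -3.05 for *Omp*, -6.23 to -4.43 for *S100a5*, -5.20 to -4.54 for *Ms4a15*, -2.83 to -2.08 for *Tbx21*, -1.10 to -1.04 for *Cdhr1*, -1.84 to -1.47 for *Doc2g* and -1.98 to -1.73 for *Eomes*. In Cb they ranged from 2.27 to 2.60 for *Cdhr1* (adjusted p 6.9e-20 to 6.7e-08), -0.36 to -0.06 for *Doc2g* (adjusted p 0.14 to 0.84) and -2.22 to -2.18 for *Eomes*, over all tools and left-out libraries.

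N and T libraries share replicate numbers in the labels, and nothing says that a number marks a shared litter or day. Deviations of same-numbered libraries correlated by 0.0069 to 0.062 in F/M and -0.016 to 0.0088 in Cb, and not every library correlated best with its own number, so the numbers were not taken as pairs. With the number as a replicate block, 150 genes were lower and 457 higher in F/M, *Rtp1* was called lower in F/M (log2 fold change -0.86, adjusted p = 0.094, edgeR), and *Cdhr1* had a log2 fold change of 2.46 and *Eomes* one of -2.20 in Cb. Depth limits *S100a5*, *Ms4a15* and *Tbx21* most, which had at most 4 counts per library in F/M-T and in Cb.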
